A study of Mus musculus with 115 samples.

Results

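Greb1, 4921521F21Rik, Mmd2, Adamts19 and 4930519N16Rik were chosen by their measured levels: they were higher in inguinal fat of mice given estradiol than of mice given blank capsules, in every genotype. They were taken by gene symbol from the array tables, which gave 8 probes of 25697 and 5 genes of 18120 symbols. Greb1 has 3 probes, 4921521F21Rik has 2 and each of the others has 1, numbered by falling mean level. RefSeq lists 4921521F21Rik as Akr1cl and 4930519N16Rik as Nxnl2, and these current symbols are used from here on. Since the choice used the difference between estradiol and blank in fat, that difference is described here without a test.

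The study put liver and inguinal adipose RNA of four-core-genotypes (FCG) mice on 1-colour Illumina bead arrays, 60 of liver and 55 of fat, to separate sex chromosomes, gonads and gonadal hormones. On a C57BL/6J background, XX and XY- mice lack Sry and had ovaries, XXSry and XY-Sry mice carry a Sry transgene and had testes, and the Y chromosome of all XY mice lacks its own Sry. All mice were gonadectomized at 75 days and given a Silastic capsule that was blank or held testosterone (5 mM by the labels) or estradiol (50 µg), and tissue was taken 3 weeks later. The 12 fat groups had 5 arrays each, except XX blank with 3 and XX testosterone, XXSry estradiol and XY-Sry blank with 4, and the 12 liver groups had 5 each. A difference between gonad types is therefore one between mice that had developed with testes or with ovaries and had neither when hormone was given.

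Estradiol enters cells and binds the nuclear receptors encoded by Esr1 and Esr2, which bind DNA at estrogen response elements and recruit coregulators. White fat expresses mainly Esr1, and estrogen is known to shape how much fat is stored and where. Greb1 encodes a chromatin factor that binds the estrogen receptor and is among the best known early estrogen targets of breast cancer cells. Akr1cl encodes a protein of the aldo-keto reductase superfamily, Mmd2 a membrane protein of the progestin and adipoQ receptor (PAQR) family, Adamts19 a secreted metalloprotease with thrombospondin motifs, and Nxnl2 a nucleoredoxin-like protein known from photoreceptors.

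The 250 bases before the RefSeq start (GRCm38.p6, all on the minus strand) are shown for Greb1, the classical target with 2 annotated starts, and for Akr1cl and Mmd2, the pair of genes that differed most between estradiol and blank in fat. Capitals mark GGTCA or its other-strand form TGACC, an arm of the estrogen response element GGTCANNNTGACC.
Greb1 first start, chr12:16800887-16801136: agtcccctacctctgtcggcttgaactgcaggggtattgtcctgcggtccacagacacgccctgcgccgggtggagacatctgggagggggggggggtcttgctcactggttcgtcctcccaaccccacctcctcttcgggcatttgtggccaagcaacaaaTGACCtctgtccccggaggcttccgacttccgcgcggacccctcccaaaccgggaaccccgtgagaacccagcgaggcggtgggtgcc
Greb1 second start, chr12:16757240-16757489: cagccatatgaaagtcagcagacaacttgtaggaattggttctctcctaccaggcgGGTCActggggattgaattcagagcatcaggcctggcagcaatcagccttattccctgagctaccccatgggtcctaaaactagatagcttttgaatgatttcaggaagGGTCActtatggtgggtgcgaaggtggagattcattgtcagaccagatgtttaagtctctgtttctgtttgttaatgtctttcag
Akr1cl, chr1:65032760-65033009: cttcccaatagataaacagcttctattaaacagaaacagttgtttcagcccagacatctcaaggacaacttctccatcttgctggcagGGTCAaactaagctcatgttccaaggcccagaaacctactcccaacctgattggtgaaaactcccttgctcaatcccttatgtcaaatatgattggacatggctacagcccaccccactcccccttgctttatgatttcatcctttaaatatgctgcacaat
Mmd2, chr5:142608753-142609002: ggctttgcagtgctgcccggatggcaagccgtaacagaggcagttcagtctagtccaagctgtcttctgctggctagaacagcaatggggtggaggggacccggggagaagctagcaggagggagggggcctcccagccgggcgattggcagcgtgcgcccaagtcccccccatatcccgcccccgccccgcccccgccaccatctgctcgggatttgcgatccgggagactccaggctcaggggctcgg
The arm lies 88 bases before the first Greb1 start, 194 and 85 bases before the second, and 162 bases before that of Akr1cl. It is not in the window shown for Mmd2, nor in the same window of Nxnl2 (GRCm38.p6, chr13:51170775-51171024, plus strand). Of all 32851 RefSeq windows of this length, 35.2% hold an arm on either strand, 8.16% hold more than 1, and 0.0639% hold the full element, which none of these windows has. A match is a run of letters and was not tested as a binding site.

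Values are log2 intensities after background correction, an added offset of 16 and quantile normalization within the tissue, so a fold understates the change of a dim probe. A probe counts as detected on an array when its deposited detection p is under 0.01, and values near 5 are mostly undetected. The fat arrays detected 40.3% to 49% of probes and the liver arrays 31.8% to 41%. All 8 adipocyte markers were detected in fat, but so were 6 of 6 skeletal muscle, 8 of 8 lymph node, 7 of 7 hepatocyte and 8 of 9 mammary epithelium markers on the array, with Wap at background. Summed hepatocyte marker intensity had a median of 766 in testosterone fat but reached 118857 in XY-Sry, within the 99608 to 126067 of testosterone liver. It also reached 22969 in XX testosterone and 21543 in XXSry blank fat. Liver arrays detected 7 of 7 hepatocyte markers and never Adipoq, Plin1, Fabp4 or Retn of the adipocyte list. The fat array XX estradiol replicate 1 has label fields that disagree on its capsule and was kept as estradiol. Of the liver arrays, XY-Sry testosterone replicate 5 had Xist at 6.63, within the XX range of 6.35 to 7.40 and above the highest other XY array at 5.45. XY- estradiol replicate 5 had Hsd3b5, a steroid dehydrogenase gene of male liver, at 12.26, within the testosterone range of 11.15 to 12.95 and above the other estradiol arrays, of which the highest, at 11.19, lay just inside that range too and was kept as labelled. Liver results are given with and without both arrays.

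All 5 genes had higher group means with estradiol than with blank in fat of every genotype. For 6 of the 8 probes every estradiol array lay above every blank and testosterone array, which held for 0.082% of the 14636 probes tested in fat; the exceptions were Greb1 probe 3 and Nxnl2. Within genotypes, estradiol and blank values overlapped in 2 of 32 cases, Greb1 probe 3 in XY-Sry and Nxnl2 in XY-. Over all probes tested, 20.5% differed between estradiol and blank (limma, Benjamini-Hochberg adjusted p under 0.05). These counts follow from the choice of the genes and carry no weight of their own. All 8 probes passed the filter on dim probes in fat, which asked for detection on at least 3 arrays, and 4 of them (Greb1 probes 2 and 3, Akr1cl probe 2 and Adamts19) did so only through estradiol arrays. Median summed markers went from 87002 in blank to 71814 in estradiol fat for adipocytes, from 7168 to 1743 for brown adipocytes and from 74178 to 14002 for skeletal muscle. They went from 2276 to 12199 for mammary epithelium and from 7079 to 18453 for lymph node, with ranges that overlapped between capsules in all 5 lists. With muscle, lymph node and hepatocyte scores as covariates, the difference of each of the 8 probes moved by less than its SD within groups. The part of adipocyte, brown adipocyte and mammary epithelium markers in these differences was not tested. The plot of probe levels by fat group shows all values.

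**Figure D1:**
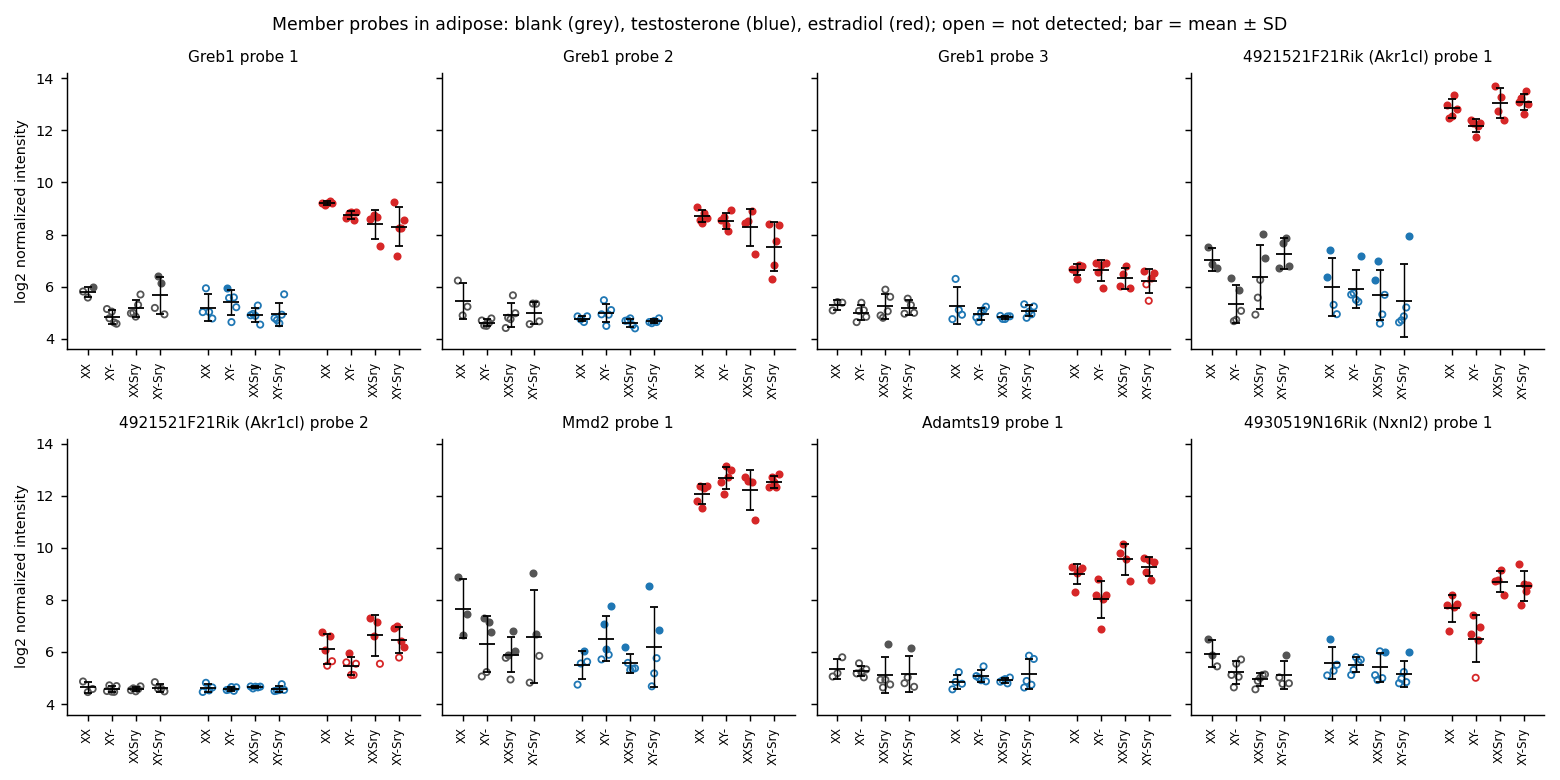
Log2 normalized intensity of the 8 probes on each fat array, by capsule and genotype; filled points are detected, open points are not, and bars give mean ± SD. Akr1cl probe 1 and Mmd2 lie between 11.07 and 13.71 on the estradiol arrays, while the blank and testosterone arrays of all 8 probes stay at or below 9.01.

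Greb1 was close to background without estradiol and detected by probe 1 on all 19 arrays with it. Probe 1 read 9.22, 9.13, 9.20, 9.30 and 9.20 in the 5 XX estradiol arrays. It read 8.63, 8.83, 8.85, 8.55 and 8.85 in XY-, 8.60, 8.76, 8.66 and 7.56 in XXSry, and 9.26, 7.17, 8.24, 8.26 and 8.56 in XY-Sry. The SD was 0.06 in XX, 0.14 in XY-, 0.56 in XXSry, where 1 array of 4 lay apart, and 0.75 in XY-Sry, and the difference in spread was not tested. XX lay above XY- without overlap, and the other neighbours in the order XX, XY-, XXSry, XY-Sry overlapped. Blank group means of probe 1 were 5.79 ± 0.20 (SD, n = 3) in XX, 4.84 ± 0.25 (n = 5) in XY-, 5.16 ± 0.34 (n = 5) in XXSry and 5.66 ± 0.71 (n = 4) in XY-Sry. In the 17 blank arrays it ran from 4.58 to 6.40 with a median of 5.14 and was detected on 3. The difference between estradiol and blank was 3.30 ± 0.15 (SE) for probe 1, 3.27 ± 0.15 for probe 2 and 1.26 ± 0.12 for probe 3.

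Greb1 probes 2 and 3 were detected on 0 of 17 blank and 0 of 19 testosterone arrays, so their folds are bounds against the dimmest detected signal of those arrays. Probe 2 was at least 4.65-fold higher in estradiol than in blank over all arrays, from at least 2.80-fold in XY-Sry to at least 6.08-fold in XX. Probe 3, which reached only 6.91, was at least 1.33-fold higher and was detected on 17 of 19 estradiol arrays. Both undetected arrays were XY-Sry. The 3 probes therefore gave the same order of estradiol group means, XX highest, then XY-, XXSry and XY-Sry.

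Akr1cl, the aldo-keto reductase relative, had the largest difference between estradiol and blank of the 8 probes, on its probe 1. That probe read 12.98, 12.47, 12.57, 13.35 and 12.82 in XX, and 12.40, 12.29, 11.74, 12.17 and 12.30 in XY-. It read 13.71, 12.76, 13.28 and 12.41 in XXSry and 13.10, 13.23, 12.63, 13.49 and 13.00 in XY-Sry. All 4 groups were high, and XY- lay below XX without overlap. Blank arrays ran from 4.68 to 8.02 with a median of 6.70, and 11 of 17 detected it, among them all 3 XX and all 4 XY-Sry arrays. Estradiol exceeded blank by 6.29 ± 0.27, and the fold of group means was 56.0 in XX, 115 in XY-, 101 in XXSry and 56.7 in XY-Sry. In XY- and XXSry 2 of 5 blank arrays each detected it, so those folds rest largely on background values.

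Akr1cl probe 2 was detected on 11 of 19 estradiol arrays and 0 of 17 blank arrays. Its estradiol group means were 6.11 ± 0.57 (SD, n = 5) in XX, 5.47 ± 0.35 (n = 5) in XY-, 6.64 ± 0.79 (n = 4) in XXSry and 6.46 ± 0.51 (n = 5) in XY-Sry. XY- was again the lowest group, with 1 of 5 arrays detected. Against the dimmest detected signal, estradiol was at least 1.51-fold higher in XXSry and at least 1.32-fold higher in XY-Sry, and no fold can be given in XY-. Which transcript each one reads is not given in the sources used here.

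Mmd2, the PAQR-family membrane protein gene, had the next largest difference. It read 11.80, 12.37, 11.53, 12.28 and 12.35 in XX, and 12.51, 12.07, 13.14, 12.72 and 12.97 in XY-. It read 12.71, 12.56, 12.52 and 11.07 in XXSry and 12.32, 12.70, 12.52, 12.32 and 12.82 in XY-Sry. The mean was highest in XY- (12.68 ± 0.42, SD, n = 5), and all neighbouring groups overlapped. Blank arrays were scattered, from 4.82 to 9.01 with a median of 6.63, and 11 of 17 detected it. The blank group with the highest mean was XX, at 8.87, 6.63 and 7.47, while the highest single array was in XY-Sry. The difference between estradiol and blank was 5.76 ± 0.30, and the fold of group means was 21.2 in XX, 82.8 in XY-, 80.0 in XXSry and 61.7 in XY-Sry. Of these blank groups, 3 of 3, 3 of 5, 3 of 5 and 2 of 4 arrays detected it.

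Adamts19, the secreted metalloprotease gene, was detected on all 19 estradiol arrays, on 2 of 17 blank arrays and on 0 of 19 testosterone arrays. Its estradiol values were 9.27, 8.29, 9.04, 9.12 and 9.23 in XX and 8.20, 8.80, 6.87, 8.02 and 8.19 in XY-. They were 9.78, 10.13, 9.58 and 8.74 in XXSry and 9.60, 9.05, 9.51, 8.74 and 9.44 in XY-Sry. XXSry had the highest mean and XY- the lowest, and neighbours in that order overlapped. Estradiol exceeded blank by 3.74 ± 0.16, or at least 7.45-fold in XX and at least 4.03-fold in XY-, where no blank array detected the gene. In XXSry and XY-Sry 1 blank array each detected it, at 6.30 and 6.16, and the others were at background, so no fold is given there.

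Nxnl2, the nucleoredoxin-like gene, was uneven across genotypes under estradiol. Its estradiol values were 7.80, 6.80, 8.17, 7.74 and 7.84 in XX, but 6.70, 7.42, 5.01, 6.44 and 6.97 in XY-, with the lowest of these undetected. They were 8.73, 8.77, 9.15 and 8.17 in XXSry and 9.39, 7.79, 8.63, 8.33 and 8.57 in XY-Sry. All but 1 of the arrays with Sry lay above 8, against 1 of 10 without. Blank arrays ran from 4.57 to 6.48, with 3 of 17 detected. Estradiol was at least 6.31-fold higher than blank in XXSry and at least 1.42-fold higher in XY-, where no blank array detected it. In XX, with 2 of 3 blank arrays detected, the fold of group means was 3.32, and none is given in XY-Sry, with 1 of 4 detected.

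Testosterone gave no called difference from blank for these probes. Fat can convert testosterone to estradiol by aromatase, and such conversion was not measured here. The contrast called 0 of 8 probes, where 4.75% of all tested probes were called, so the count is near the share over all probes. Of the 8, 2 had an unadjusted p under 0.05, both of them lower with testosterone. The blank arrays had also served to choose the genes, so the contrast is not independent of that choice. Greb1 probes 2 and 3, Akr1cl probe 2 and Adamts19 had passed the filter only through estradiol arrays. Greb1 probes 2 and 3 and Akr1cl probe 2 were detected on no array of either capsule, and Adamts19 on 2 blank arrays, so a fall of these probes could not be measured. Akr1cl probe 1 ran from 4.58 to 7.93 over the 19 testosterone arrays with a median of 5.49, mostly inside the blank range, and differed from blank by -0.74 ± 0.27 (adjusted p = 0.113, limma). Mmd2 ran from 4.68 to 8.53 with a median of 5.71 and differed by -0.67 ± 0.30 (adjusted p = 0.209, limma). Across testosterone groups, Akr1cl probe 1 averaged 6.00 ± 1.11 (SD, n = 4) in XX, 5.91 ± 0.73 (n = 5) in XY-, 5.68 ± 0.97 (n = 5) in XXSry and 5.47 ± 1.39 (n = 5) in XY-Sry, all overlapping. Its single highest array, at 7.93, was in XY-Sry, where the other 4 lay between 4.63 and 5.20. For Mmd2 the means were 5.49 ± 0.54 (SD, n = 4) in XX, 6.51 ± 0.87 (n = 5) in XY-, 5.56 ± 0.36 (n = 5) in XXSry and 6.20 ± 1.53 (n = 5) in XY-Sry. Liver detects Mmd2, and hepatocyte markers were uneven in these fat arrays. With muscle, lymph node and hepatocyte scores together as covariates, testosterone minus blank was again not called for Mmd2 or Akr1cl probe 1. The part of hepatocyte markers alone was not tested. Of the other probes, Greb1 probe 1 was detected on 1 of 19 testosterone arrays and Nxnl2 on 3, and the rest on none. Akr1cl probe 1 passed the test without XY-Sry testosterone replicate 5 (difference -0.89, adjusted p = 0.019, limma). On the 2 slides that held both capsules its difference was -1.58 on one and 0.92 on the other, so the sign was not the same.

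The gonads that the mice had developed with went along with the level of some members under estradiol. In estradiol fat 4 of 8 probes differed between mice with and without Sry, where 4.4% of all tested probes did. Nxnl2, Adamts19 and Akr1cl probe 2 were higher in mice with Sry, and Greb1 probe 2 was lower. The genes had been chosen by their levels on these same estradiol arrays. Adamts19, Akr1cl probe 2 and Greb1 probe 2 also passed the filter only through estradiol arrays. The share over all probes is therefore not a like background. In blank and testosterone fat 0 of 8 were called, against 1.8% and 3.42% of all probes, with 1 and 0 probes at an unadjusted p under 0.05. A count of 0 is near those shares. Most blank and testosterone values of those 4 probes were undetected, so a difference there was largely not measurable.

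Nxnl2 differed most, by 1.53 ± 0.24 (adjusted p = 5.9e-06, limma), with a median of 8.63 in the 9 estradiol arrays with Sry (lowest 7.79, highest 9.39) and 7.19 in the 10 without (5.01 to 8.17). Adamts19 had a median of 9.51 with Sry (8.74 to 10.13) and 8.54 without (6.87 to 9.27), a difference of 0.91 ± 0.22 (adjusted p = 0.0043, limma). The groups overlapped for both genes, and the difference was positive on all 5 slides that held estradiol arrays of both gonad types. Akr1cl probe 2 differed by 0.76 ± 0.16 (adjusted p = 7.9e-04, limma), and was detected on 7 of 9 arrays with Sry and 4 of 10 without. Akr1cl probe 1 differed by 0.55 ± 0.37 and did not pass (adjusted p = 0.616, limma), though it too was positive on all 5 slides. Mmd2 differed by 0.0015 ± 0.41 (adjusted p = 0.9995, limma), with medians of 12.52 with Sry and 12.36 without.

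Greb1 probe 2 was lower with Sry. It had a median of 8.38 with Sry (6.30 to 8.90) and 8.59 without (8.13 to 9.04), a contrast of -0.71 ± 0.21 (adjusted p = 0.032, limma), and it was lower with Sry on all 5 slides. The groups overlapped, with 4 of the 9 arrays with Sry below the lowest array without. Probes 1 and 3 had contrasts of -0.63 ± 0.20 (adjusted p = 0.066, limma) and -0.38 ± 0.17 (adjusted p = 0.277, limma), and were lower on 4 of 5 slides. Probe 1 passed in 5 of 9 alternatives (adjusted p = 0.0029 with no background correction, 0.0079 with an offset of 50, 0.044 with slide as a random block, 0.037 with array weights and 0.036 with other-tissue scores as covariates, limma) and without XY-Sry estradiol replicate 1 (adjusted p = 0.013, limma). The call for probe 2 was lost without XX replicate 1 or 4, XY- replicate 2 or 5, XXSry replicate 4 or XY-Sry replicate 2 or 3 under estradiol (adjusted p from 0.051 to 0.138, limma), and with median centring in place of quantiles (adjusted p = 0.095, limma). With XX estradiol replicate 1 counted as testosterone, 2 of 8 probes were called, and those of Greb1 and Adamts19 were lost (adjusted p = 0.425 and 0.160, limma). All XX estradiol arrays, this one included, read 12.47 or higher on Akr1cl probe 1, and the arrays labelled testosterone reached 7.93. That fit therefore puts an array far from the others into the XX testosterone group.

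**Figure D2:**
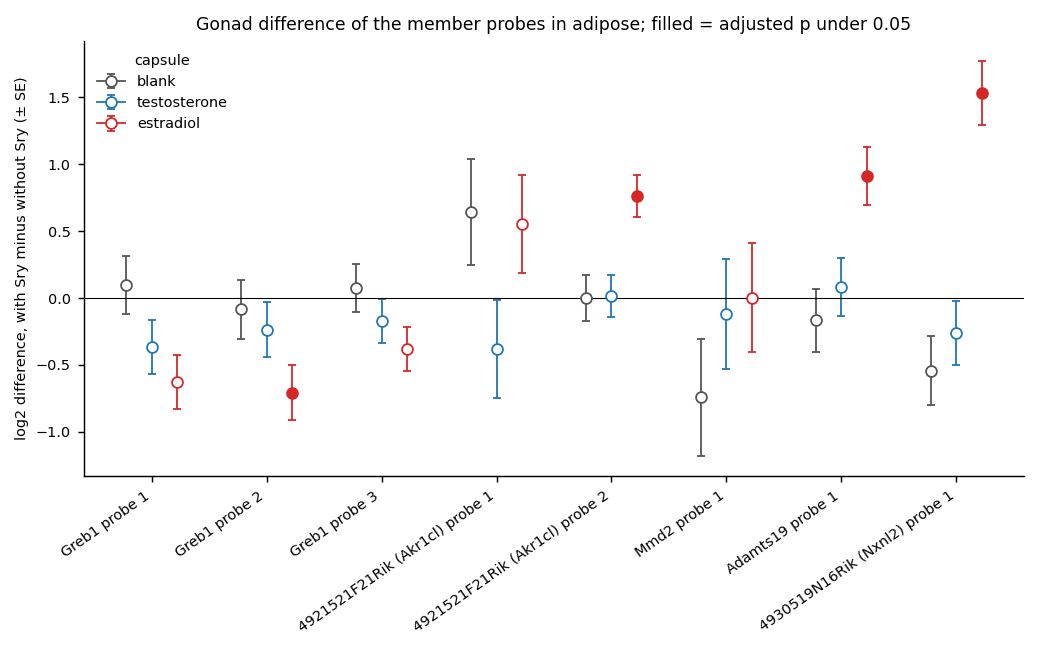
Log2 difference between fat of mice with and without Sry (± SE) for each probe under blank, testosterone and estradiol; filled points have an adjusted p under 0.05. Filled points appear only under estradiol, above 0 for Nxnl2 (1.53), Adamts19 (0.91) and Akr1cl probe 2 (0.76), and below 0 for Greb1 probe 2 (-0.71).

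Mammary epithelium markers moved with this comparison. Their summed intensity ran from 370 to 4638 in the 9 estradiol arrays with Sry and from 12199 to 24098 in the 10 without, so the gonad types did not overlap, and their part in the differences above was not tested. In blank fat they ran from 434 to 2276 with Sry and from 3963 to 15455 without. Summed adipocyte markers ran from 69759 to 90274 with Sry and from 53928 to 74817 without, and their part was not tested either. In whole tissue, fewer cells of a type and less RNA per cell cannot be told apart. Nxnl2, Adamts19 and Akr1cl probe 2 were higher in the gonad type whose mammary sum was low, and Greb1 probe 2 in the one whose sum was high. With muscle, lymph node and hepatocyte scores as covariates the 4 calls stood, and Greb1 probe 1 joined them at a difference of -0.68. Mammary and adipocyte scores were not among these covariates, so this fit does not bear on them.

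Whether the gonad difference changed from blank to estradiol was tested directly in a contrast added after these values had been seen. It called 1 of 8 probes, Nxnl2, with a change of 2.08 ± 0.35 (adjusted p = 1.8e-04, limma), where 0.813% of all probes were called. Adamts19 had a change of 1.08 ± 0.32 (adjusted p = 0.113, limma) and Akr1cl probe 2 of 0.76 ± 0.23 (adjusted p = 0.149, limma). The number called rose to 2 without XXSry blank replicate 4 or XY-Sry blank replicate 3, and to 3 without XXSry estradiol replicate 4. Because most blank arrays did not detect these genes, the blank side of the contrast is at background. The contrast is also built from the differences between estradiol and blank that chose the genes, so its p-values are not an independent test.

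The sex chromosomes gave no called difference among the members. XX minus XY called 0 of 8 probes in blank, testosterone and estradiol fat, against 0.157%, 0.0683% and 0.0547% of all probes. With shares this low, a count of 0 says little about these 8 probes. The number at an unadjusted p under 0.05 was 0 in blank, 1 in testosterone and 4 in estradiol fat. Those 4 were Nxnl2 (0.66 ± 0.24), Adamts19 (0.63 ± 0.22), Greb1 probe 2 (0.45 ± 0.21) and Akr1cl probe 2 (0.41 ± 0.16), all higher in XX, and each had an adjusted p of 0.839 (limma). With arrays weighted by quality, 3 of the 8 passed in estradiol fat: Akr1cl probe 2, Adamts19 and Nxnl2 (adjusted p = 0.019, 0.032 and 0.040, limma). The share of all probes called in that weighted fit is not given here, and the 0.0547% above is not its background. Akr1cl probe 2 and Adamts19 also passed the filter on dim probes only through estradiol arrays. XY- had the lowest estradiol mean of the 4 genotypes for each of these 3 probes.

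From array to array, Adamts19 and Nxnl2 varied together. Over the 19 estradiol arrays, after each genotype's mean was taken off, 23 of 24 pairs of probes from different genes correlated above 0, with a median Pearson r of 0.33. The pairs reuse the several probes of Greb1 and Akr1cl, so they are not separate observations. No correlations of other probe pairs are given as a background, so this count carries no weight of its own. Of these 24 pairs, 1 passed a permutation test within genotypes adjusted over 68 relations. This was Adamts19 with Nxnl2, at a Pearson r of 0.85 (two-sided permutation p = 0.00039, adjusted p = 0.013) and a Spearman rho of 0.70 (permutation p = 0.00203, adjusted p = 0.028), with r at 0.74 without the 2 arrays farthest out in Adamts19. For scale, Greb1 probes 1 and 2, which read the same gene, had an r of 0.87 (permutation p = 0.00037, adjusted p = 0.013), a rho of 0.83 (permutation p = 0.00041, adjusted p = 0.028) and an r of 0.80 without the 2 farthest arrays. Mmd2 and Nxnl2 formed the only pair below 0, at an r of -0.25, which did not pass (permutation p = 0.3, adjusted p = 0.453, rho -0.33). All points share array, RNA extract and normalization. Of 40 relations between the 8 probes and 5 marker scores, 0 passed by Pearson r. By Spearman's rho 1 of the 40 passed, Greb1 probe 1 with lymph node markers (rho -0.66, permutation p = 0.00174, adjusted p = 0.028), at a Pearson r of -0.40 (permutation p = 0.142, adjusted p = 0.312) and of -0.66 without the 2 farthest arrays.

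**Figure D3:**
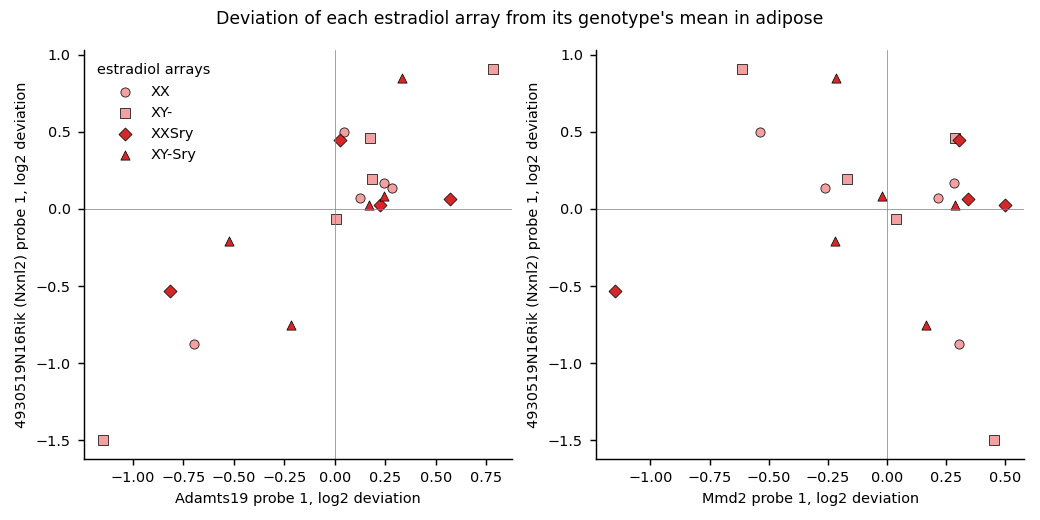
Deviation of each of the 19 estradiol fat arrays from its genotype's mean (log2), for Nxnl2 against Adamts19 on the left and against Mmd2 on the right; symbols give the genotype. Points rise together on the left (r 0.85) and show no such trend on the right (r -0.25).

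Liver detected only Mmd2. The other 7 probes were detected on 0 of 60 liver arrays, with their lowest detection p between 0.025 and 0.157 and their highest deposited intensities between 147 and 160, so whether liver induces Greb1, Akr1cl, Adamts19 or Nxnl2 below that level was not measurable. Without the filter, their differences between estradiol and blank in liver lay between -0.061 and 0.057, at adjusted p of 0.773 or higher (limma). Levels in the 2 tissues were normalized apart and are not compared between them.

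Mmd2 was present in liver without hormone and moved with testosterone. It ran from 6.44 to 9.08 with a median of 8.04 over the 20 blank arrays, and from 4.92 to 9.09 with a median of 6.62 over the 20 testosterone arrays. It ran from 7.09 to 9.95 with a median of 8.57 over the 20 estradiol arrays. The 3 capsules overlapped, with testosterone lowest. Under testosterone the liver group means were 6.67 ± 0.63 (SD, n = 5) in XX, 6.997 ± 0.54 in XY-, 6.70 ± 1.19 in XXSry and 6.46 ± 1.57 in XY-Sry. Under blank they were 8.25 ± 0.70 in XX, 8.14 ± 0.49 in XY-, 8.03 ± 0.40 in XXSry and 7.43 ± 0.84 in XY-Sry, so each genotype's blank mean lay above its testosterone mean. Mmd2 fell with testosterone, by 1.26 ± 0.24 on the log2 scale (adjusted p = 9.8e-05, limma), where 19.1% of the 11317 liver probes were called, and it was lower on all 3 slides that held both capsules. In fat the same contrast was -0.67 and not called, and the difference between tissues was not tested.

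Estradiol gave no called change of Mmd2 in liver on all arrays, 0.58 ± 0.24 (adjusted p = 0.143, limma), against 6.82% of probes called. With slide as a random block on all arrays it was called, at 0.77 (adjusted p = 0.036, limma). Without the 2 liver arrays that go against their labels, Mmd2 rose by 0.68 (adjusted p = 0.026, limma) and the fall with testosterone was 1.42, a contrast of -1.42 (adjusted p = 3.0e-07, limma). Both were left out of every contrast of that fit, though each bore out its other label. XY-Sry testosterone replicate 5 had Hsd3b5 of 11.15 or higher, within the testosterone range. XY- estradiol replicate 5 had Xist of 5.45 or lower, below the XX range. The array XY- estradiol replicate 5 had the lowest Mmd2 of the estradiol arrays, at 7.09, and XY-Sry testosterone replicate 5 the highest of the testosterone arrays, at 9.09. Estradiol group means in liver were 9.25 ± 0.64 (SD, n = 5) in XX, 8.55 ± 0.89 in XY-, 7.99 ± 0.55 in XXSry and 8.40 ± 0.48 in XY-Sry, above blank in all genotypes but XXSry. The estradiol difference on the 2 slides with both capsules was 0.45 and 1.47. Mice with and without Sry differed by -0.47 (adjusted p = 0.255, limma; 3.4% of probes called) on all arrays and by -0.65 (adjusted p = 0.010, limma) without both. Leaving out XY-Sry testosterone replicate 5 alone was enough for the call (difference -0.58, adjusted p = 0.042, limma). XX and XY mice differed by 0.15 ± 0.20 (adjusted p = 0.999, limma; 0.186% of probes called).

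**Figure D4:**
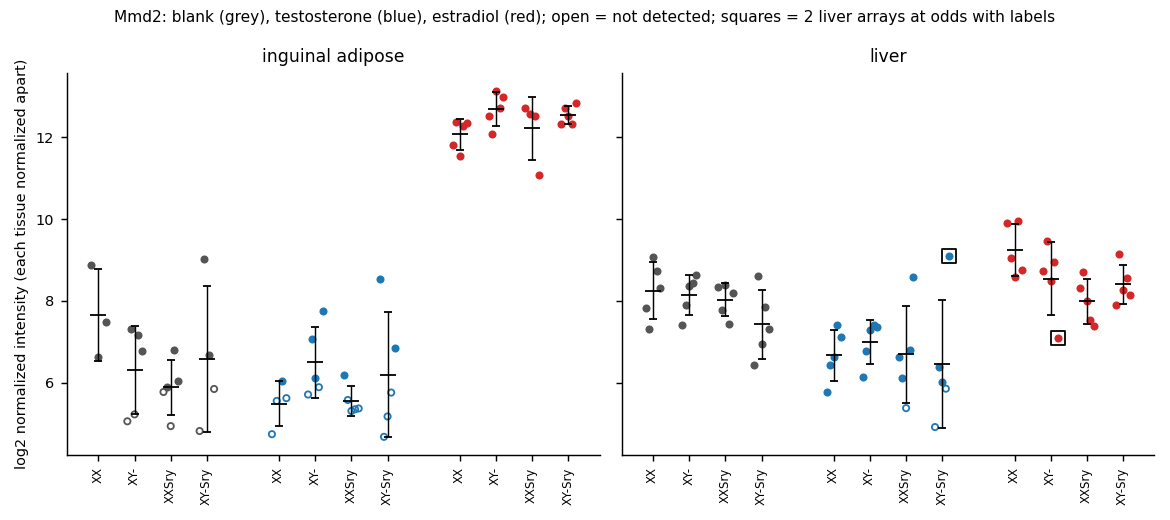
Log2 normalized intensity of Mmd2 on each fat and liver array by capsule and genotype; filled points are detected, bars give mean ± SD, and squares mark the 2 liver arrays at odds with their labels. In fat the estradiol arrays (11.07 to 13.14) stand apart from the rest, and in liver the capsules overlap, with the squared estradiol array lowest and the squared testosterone array highest of their capsules.

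Other genes of the estrogen pathway moved in both directions in fat. Among receptors and coregulators, 0 of 10 tested probes rose and 3 fell with estradiol, where 20.5% of all tested probes were called in either direction, with a list median of -0.19 against -0.016 over all tested probes. Esr1, the main estrogen receptor gene of fat, fell from 8.63 ± 0.76 (SD, n = 17) to 7.78 ± 0.50 (n = 19), a contrast of -0.83 ± 0.18 (adjusted p = 6.7e-04, limma). Gper1, a membrane estrogen receptor gene, had a contrast of -0.64 ± 0.18 (adjusted p = 0.0062, limma) and was detected on 3 of 19 estradiol arrays. Esr2 did not pass the filter on dim probes.

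Of 36 tested probes for textbook estrogen-induced genes, 5 rose and 4 fell, with a median of 0.080, a share near the 20.5% over all probes. The 5 that rose belong to 5 genes and the 4 that fell to 3. Areg, an epidermal growth factor receptor ligand, rose by 2.24 ± 0.32 (adjusted p = 5.5e-07, limma), and Pgr, the progesterone receptor gene, by 0.87 ± 0.12 (adjusted p = 3.5e-07, limma). Of the 19 estradiol arrays, Areg was detected on 13 and Pgr on 10. Within estradiol fat both were lower with Sry, Areg by a contrast of -4.43 and Pgr by one of -1.29 (adjusted p = 8.1e-11 and 6.0e-08, limma), beside the mammary marker sums given above, whose part was not tested. The gonad difference of Areg changed from blank to estradiol by -4.66 (adjusted p = 2.6e-06, limma), so its mean rise does not hold alike for both gonad types, and that of Pgr by -0.80 (adjusted p = 0.149, limma). The secreted factor genes Wnt4 (-0.84 ± 0.27, adjusted p = 0.018) and Igfbp4 (-0.37 ± 0.12, adjusted p = 0.019, limma) fell, the latter not with median centring (adjusted p = 0.123, limma). The other tested probe of Wnt4 was not called, at -0.47 (adjusted p = 0.117, limma).

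**Figure D5:**
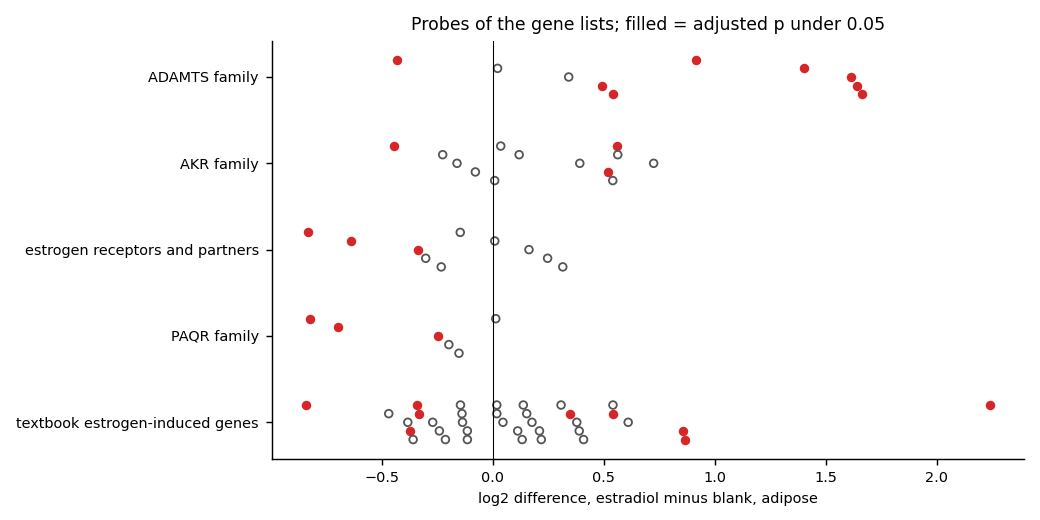
Log2 difference between estradiol and blank in fat for each tested probe of the 5 gene lists; filled points have an adjusted p under 0.05. Most points lie within 1 of 0, with Areg (2.24), the Adamts2 probes (1.40 to 1.67) and Adamts15 (1.61) beyond.

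The families of the members are set against the same 20.5%. Of 10 other tested ADAMTS probes, 7 rose and 1 fell, with a median of 0.73. The 7 belong to 5 genes, with Adamts2 read by more than 1 probe. Among them, Adamts16 was detected on 5 and Adamts18 on 3 of 19 estradiol arrays, and both on 0 of 17 blank arrays. Adamts2, which processes procollagen, rose by 1.67 ± 0.17 (adjusted p = 2.7e-10, limma) on the probe that differed most and Adamts15 by 1.61 ± 0.25 (adjusted p = 2.1e-06, limma), while Adamts7 fell by 0.43 ± 0.11 (adjusted p = 0.0019, limma). Of 6 PAQR probes, the family of Mmd2, 0 rose and 3 fell. The 3 belong to 2 genes, Paqr9 (-0.82 ± 0.16 and -0.69 ± 0.17) and the adiponectin receptor gene Adipor1 (-0.25 ± 0.07). Of 13 aldo-keto reductase probes 2 rose and 1 fell, a share near that over all probes. Both that rose belong to 1 gene, Akr1c14 (0.56 ± 0.14 and 0.52 ± 0.15), and Akr1b10 fell (-0.44 ± 0.10). The other tested probe of Akr1b10 was not called, at -0.16 (adjusted p = 0.507, limma). The Akr1c14 probe at 0.56 was detected on 5 of 19 estradiol and 0 of 17 blank arrays, and the other on 4 and 0.

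The genes whose 12 fat group means followed a member most closely were found by Pearson correlation over the group means, a description in which all genes share the contrast between estradiol and the rest. Lrrc15, a leucine-rich repeat membrane protein gene, ranked first for all 3 Greb1 probes (r from 0.965 to 0.973), followed for probes 1 and 2 by the gap junction gene Gja1 and the carbonic anhydrase gene Car12. Gpx5 was among the first 3 for Greb1 probe 3. For Akr1cl probe 1 they were Ngfr (0.990), the lysyl hydroxylase gene Plod2 and Lrrc15, and for Mmd2 they were Plod2 (0.983), Fbxw17 and Glipr2. P4ha3, a collagen prolyl hydroxylase subunit gene, was first for Akr1cl probe 2 (0.997) and Adamts19 (0.985), with the calcium channel gene Cacna1g also among the first 3 for both. Egr2 completed the 3 for Akr1cl probe 2 and Ngfr those for Adamts19. For Nxnl2 they were Minar2 (0.991), Cacna1g and Fam171b.

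Because the group means that chose these genes include the 4 estradiol groups, their gonad difference under estradiol is given without a test. It was 0.77 for Minar2, 0.86 for P4ha3, 0.74 for Cacna1g and 1.14 for Egr2, against 1.53 for Nxnl2, 0.91 for Adamts19 and 0.76 for Akr1cl probe 2. For Lrrc15 it was -0.23, for Car12 -0.24 and for Gja1 -0.09.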

How the data were processed

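Per the labels' protocols, RNA of liver and inguinal fat was isolated with Trizol and labelled for Illumina arrays. The deposited tables give, for each probe and array, a mean bead signal (an intensity, not on a log scale) and the p-value of its detection; their 115 bead standard error columns were not used. The submitters' processing notes name lumi, without a version. Scanner software and array version are not given in the sources used here.

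Intensities were background-corrected from the detection p-values (nec, offset 16), quantile-normalized within each tissue and put on the log2 scale in limma 3.58.1 (R 4.3.3). Probes detected (p under 0.01) on at least 3 fat or 5 liver arrays were tested, in a model with 1 mean per group, and p-values were adjusted by Benjamini-Hochberg over all tested probes. Contrasts averaged the genotypes equally; the one between gonad differences was added after the data were seen. Correlations over estradiol arrays were tested with 100000 permutations within genotypes. The script was checked on simulated data. A group mean below background was replaced, for folds given as bounds, by each array's lowest detected signal. Symbols that a spreadsheet had altered in the fat table (27) were read by probe ID from the liver table.

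Members, gene lists and marker lists were chosen with earlier results of these data known. List genes named are those called with the 2 largest differences in each direction, plus Esr1, Esr2 and Pgr, and for each member the 3 genes with the highest correlation over group means. Replicate numbers follow sample order and pair nothing. The labels do not say whether each array is a separate animal, so p-values measure the spread between arrays, and the number of arrays limits the precision.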

Additional observations from a re-analysis of the deposited data

Results flagged for a closer look

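In 100 groups of 4 or 5 arrays, 7 had an array far from the others of its group (gap over range above Dixon's 95% value), and chance flags about 1 in 20. Akr1cl probe 1 stood high in XY- testosterone replicate 5 (7.19 against 5.75 next, gap over range 0.813) and XY-Sry testosterone replicate 5 (7.93 against 5.20, 0.827). Akr1cl probe 2 stood high, though undetected, in XY-Sry testosterone replicate 4 (4.77 against 4.54, 0.832). Adamts19 stood low in XX estradiol replicate 2 (8.29 against 9.04, 0.760) and high in XXSry blank replicate 4 (6.30 against 4.94, 0.822). The array XXSry estradiol replicate 4 was low for both Greb1 probe 1 (7.56 against 8.60, 0.869) and Mmd2 (11.07 against 12.52, 0.883).

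The gonad difference of Nxnl2 differed between estradiol and blank fat, by 2.08 ± 0.35 (adjusted p = 1.8e-04, limma). This contrast was added after the values had been seen. It is built from the differences that chose the genes, so its p-value is not an independent test.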

How the results depend on the processing

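Alternatives were no background correction, an offset of 50, median centring, 2 other filters on dim probes, slide as a random block, array weights, other-tissue scores as covariates, XX estradiol replicate 1 taken as testosterone, and each array left out in turn; the liver fits without both doubtful arrays were added after the data were seen. The difference between estradiol and blank in fat kept its direction for all 8 probes under all of these. It shrank with no background correction, to 1.70, 1.58 and 0.44 for Greb1 probes 1, 2 and 3, 4.98 and 0.63 for Akr1cl probes 1 and 2, 4.48 for Mmd2, 1.99 for Adamts19 and 1.22 for Nxnl2, since the added background lowers folds. With an offset of 50 it was 2.53, 2.37 and 0.79 for the Greb1 probes, 0.89 for Akr1cl probe 2, 2.89 for Adamts19 and 1.88 for Nxnl2. The gonad difference of Nxnl2 under estradiol kept its call in all 9 alternatives and 55 leave-outs (0.94 to 1.65). Called under estradiol were 2 probes with XX estradiol replicate 1 taken as testosterone, and Mmd2 changed sign there (-0.032), with slide as a block (-0.020), with covariates (-0.14) and among leave-outs (-0.082 to 0.19). The change of the gonad difference from blank to estradiol was called for 2 probes with no background correction, offset 50 or array weights, and for 1 to 3 among leave-outs. Testosterone against blank was called for 1 probe with array weights and 0 to 1 among leave-outs, and XX against XY under estradiol for 3 with array weights. Shares called over all probes are not given for the alternatives, so these counts have no background beside them. In the lists, 7 textbook estrogen-induced probes fell with array weights, and 2 aldo-keto reductase probes fell with no filter. In liver, Mmd2 was called (1 probe) for estradiol with slide as a block and without both doubtful arrays, and for gonads without both and in 0 to 1 among leave-outs. For these changes of call the cause was not tested. No paired analysis was possible because the replicate numbers are names in sample order and pair no arrays; slide, which is not such a number, was fitted as a block above. Values near background limit what can be said of blank and testosterone fat and of liver.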
